A study of Mus musculus with 9 samples.

Results

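The comparison described here set cells sorted for NDRG1-eGFP, which the labels call myelinating oligodendrocytes, against cells sorted for PLP-GFP, which they call pre-myelinating oligodendrocytes. It used 6 of the 9 RNA sequencing libraries of the series, chosen by their labels: 3 NDRG1-eGFP and 3 PLP-GFP libraries. All cells came from the brain of C57BL/6 mice at postnatal day 60, and the remaining 3 libraries, from PDGFRa-GFP oligodendrocyte progenitors, served here to estimate the spread and as a reference level. Both groups were defined by a reporter in a sort by fluorescence, so each holds whatever cells carried that reporter. Whether the libraries of a group stem from different mice is not stated, and p-values therefore measure only how these libraries vary, which may be technical.

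Oligodendrocytes wrap axons in myelin, a stack of membrane that is rich in cholesterol and galactolipids and is held together by a few abundant proteins. Progenitors marked by Pdgfra leave the cell cycle, pass through a stage in which they extend many actin-rich processes, and then make the sheath. Ndrg1 encodes a cytoplasmic protein of mature oligodendrocytes and of Schwann cells, and its loss in humans causes a demyelinating neuropathy.

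Values were the deposited normalised log2 values of 11315 genes, and a difference is the mean of the NDRG1-eGFP libraries minus the mean of the PLP-GFP libraries, on that scale. Ndrg1, the gene behind one of the reporters, did not pass the test. It read 16.98, 17.05 and 16.94 in NDRG1-eGFP cells against 16.68, 16.94 and 16.90 in PLP-GFP cells, a difference of 0.15 ± 0.11 (SE, adjusted p = 0.301). Both groups carried the oligodendrocyte markers: Sox10, a lineage transcription factor, lay between 15.37 and 15.69 over the 6 libraries, and Mbp, which encodes myelin basic protein, between 19.17 and 19.71. Pdgfra, which marks progenitors, was low throughout but read 5.85, 4.98 and 6.26 in NDRG1-eGFP cells against 1.52, 4.98 and 1.63 in PLP-GFP cells, with a difference of 2.99 ± 1.0 (SE, adjusted p = 0.0307). That call was lost without PLP-GFP replicate 1 or 3 or NDRG1-eGFP replicate 1 or 3 (adjusted p from 0.076 to 0.0984). A Y-linked gene, Ddx3y, read 8.64, 1.82 and 7.33 in NDRG1-eGFP cells against 13.23, 1.57 and 1.63 in PLP-GFP cells, so the libraries of each group differed among themselves in this respect.

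At an adjusted p under 0.05, NDRG1-eGFP cells had higher values for 2953 of the 11315 genes (26.1%) and lower values for 2507 (22.2%). In bulk samples, fewer cells of a type and less RNA per cell cannot be told apart. Differences moved with 2 properties of the transcripts. Genes are called shared here when over 5% of the 50-base windows of their transcript also occur in transcripts of another locus, which leaves reads without a unique origin. Windows found only in overlapping genes of the same locus do not count. There were 1072 shared genes and 10202 others, and among the others 2830 (27.7%) were higher and 2004 (19.6%) lower.

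Short transcripts ran higher in NDRG1-eGFP cells and long transcripts lower. The 10202 genes with little shared sequence were cut into 10 bins of length. In the shortest bin, with a median length of 1109 bases, the median difference was 0.88, and 70.4% of genes were higher against 1.76% lower. In the longest bin, with a median of 8564 bases, the median was -0.62, and 4.41% were higher against 47.5% lower. Every library of both groups took part. Relative to the mean over the 9 libraries, the shortest bin had a median of 0.55, 0.39 and 0.32 in NDRG1-eGFP cells and of -0.29, -0.55 and -0.51 in PLP-GFP cells, with no overlap. When the trend on length was removed from each library, the medians of the bins lay between -0.09 and 0.15. That fit called 1617 genes higher (14.3%) and 1866 lower (16.6%), in all 30.9%, of 11274 with an annotation. Of the genes with little shared sequence, 1152 (11.3%) were called higher and 1069 (10.5%) lower in both fits, and 10 turned from one direction to the other. These are called genes of both fits below. For the lists of processes and cell types further down, counts are given for the deposited values and for both fits. Counts for both fits leave out shared genes and genes called only with the length trend removed. They therefore still depend on the trend in the deposited values. Over all genes, the shares to set beside list counts are 26.1% higher and 22.2% lower as deposited. For both fits they are 11.3% and 10.5% of genes with little shared sequence.

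**Figure D1:**
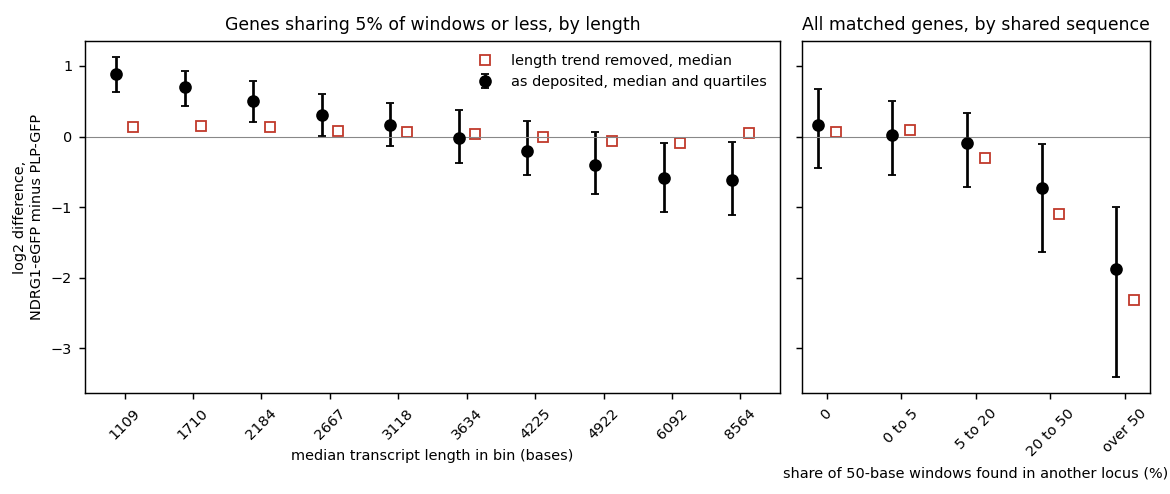
Left, the log2 difference between NDRG1-eGFP and PLP-GFP cells (y axis) for genes with little shared sequence in 10 bins of transcript length (x axis); right, the same for bins of shared sequence over all matched genes. Black points are medians with bars to the quartiles, and open squares are medians after removal of each library's length trend. The median falls from 0.88 in the shortest bin to -0.62 in the longest, and to -1.88 where over 50% of windows are shared.

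Genes with near-identical copies elsewhere in the genome were mostly lower in NDRG1-eGFP cells. Of the 166 genes with over 50% of their windows shared, 128 (77.1%) were lower and 7 higher, with a median difference of -1.88. The median of this set, relative to the 9 libraries, was -1.40, -1.20 and -1.31 in NDRG1-eGFP cells, 0.64, 0.52 and 0.50 in PLP-GFP cells and 0.67, 0.71 and 1.15 in PDGFRa-GFP cells. The NDRG1-eGFP libraries therefore stood apart from both other groups. For 77 of the 166 the best matching copy was a pseudogene. Coding stretches of 4 such pairs are shown because they make clear how little there is to tell the copies apart. They are 60 bases of the transcripts of GENCODE M21 on GRCm38 (mm10), read 5′ to 3′ along the gene, with differences between the copies in capitals.
Hba-a1: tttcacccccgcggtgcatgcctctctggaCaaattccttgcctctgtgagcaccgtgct
Hba-a2: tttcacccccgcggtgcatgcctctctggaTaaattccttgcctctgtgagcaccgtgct
Rps27: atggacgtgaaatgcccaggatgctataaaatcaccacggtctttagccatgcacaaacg
Rps27rt: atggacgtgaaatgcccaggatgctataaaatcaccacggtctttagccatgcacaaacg
Rpl24: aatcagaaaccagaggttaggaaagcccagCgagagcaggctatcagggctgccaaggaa
Gm9385: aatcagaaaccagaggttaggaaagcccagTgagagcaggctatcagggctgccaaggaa
mt-Co2: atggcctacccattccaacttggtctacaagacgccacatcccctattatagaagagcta
Gm28661: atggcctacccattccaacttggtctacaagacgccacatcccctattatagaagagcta

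Hba-a1 (chr11:32283511-32284465) and Hba-a2 (chr11:32296489-32297298) both encode the alpha chain of haemoglobin, and their coding sequences differed at 1 of 426 bases. Hba-a1 read 0.35, 1.17 and 0.32 in NDRG1-eGFP cells, close to the lowest values in the table, and 12.88, 11.85 and 11.95 in PLP-GFP cells. Hba-a2 went the other way, with 9.79, 7.57 and 10.32 against 4.23, 3.61 and 3.24. The copies thus moved in opposite directions, with differences of -11.61 and 5.53. The sum of their linear values differed by -3.0 ± 0.99 on the log2 scale (SE, adjusted p = 0.0297). Acaa1a and Acaa1b, which encode peroxisomal thiolases, likewise differed by 1.08 and -6.64, while their sum was 1.0 higher. Among 82 groups of measured copies, covering 203 genes, 8 had members called in both directions, and the sum was higher in 11 and lower in 35.

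Nearly all genes for cytosolic ribosomal proteins have processed copies elsewhere. Of 81 measured genes for cytosolic ribosomal proteins, 62 were lower and 4 higher, with a median of -1.99, and 79 of the 81 were shared. Of the 7 genes with under 10% of windows shared, 3 were higher and 1 lower, with differences between -1.13 and 0.91. Rps3, a protein of the small subunit with 2.96% shared, read 13.59, 13.34 and 13.41 against 12.86, 12.48 and 12.56, a difference of 0.81 ± 0.22 (SE, adjusted p = 0.0106). Rpl24, a protein of the large subunit with 67.4% shared, whose closest copy is the pseudogene Gm9385 on chromosome 9, read 4.32, 4.76 and 5.35 against 11.66, 11.28 and 11.39. Rps27 (63.1% shared) differed by -4.19, whereas its intronless copy Rps27rt differed by 2.64, a call lost when any 1 of the 6 libraries was left out (adjusted p from 0.0708 to 0.111). Ubb, a polyubiquitin gene with over 50% of windows shared, read 7.32, 6.60 and 7.57 against 14.72, 14.45 and 14.59. The alpha tubulins Tuba1a, Tuba1b and Tuba1c differed by -1.83, -7.95 and -3.97.

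In the mitochondrial genome, values varied with sharing from gene to gene, with exceptions given below, although its genes are transcribed together as long precursors. The 5 genes with over 90% of windows found elsewhere were all lower, with differences from -8.35 to -2.27. Of these, mt-Co2, a subunit of cytochrome oxidase whose coding sequence is identical to the chromosome 1 copy Gm28661, read 4.22, 4.86 and 5.05 against 13.48, 12.80 and 12.90. mt-Cytb, the cytochrome b gene with 0% shared, read 17.70, 17.70 and 18.21 against 17.62, 17.05 and 16.94, a difference of 0.66 ± 0.22 (SE, adjusted p = 0.0310). Of the 6 genes with under 10% shared, 1 was higher and 1 lower. The exception was mt-Atp8, a short gene that overlaps mt-Atp6, which had 0% of windows shared and read 1.80, 2.46 and 1.84 against 10.94, 10.40 and 10.39. Sharing was counted over annotated transcripts only, so a copy in unannotated sequence would not be seen. Among the genes in between, mt-Nd4, a complex I subunit, was 1.12 ± 0.26 (SE) higher with 62.2% of windows shared. The part of read assignment in these differences was not tested. Over the 13 measured genes, 2 were higher and 6 lower, and the higher count was 4 without PLP-GFP replicate 1 and 1 without PLP-GFP replicate 2 or 3 or NDRG1-eGFP replicate 3.

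**Figure D2:**
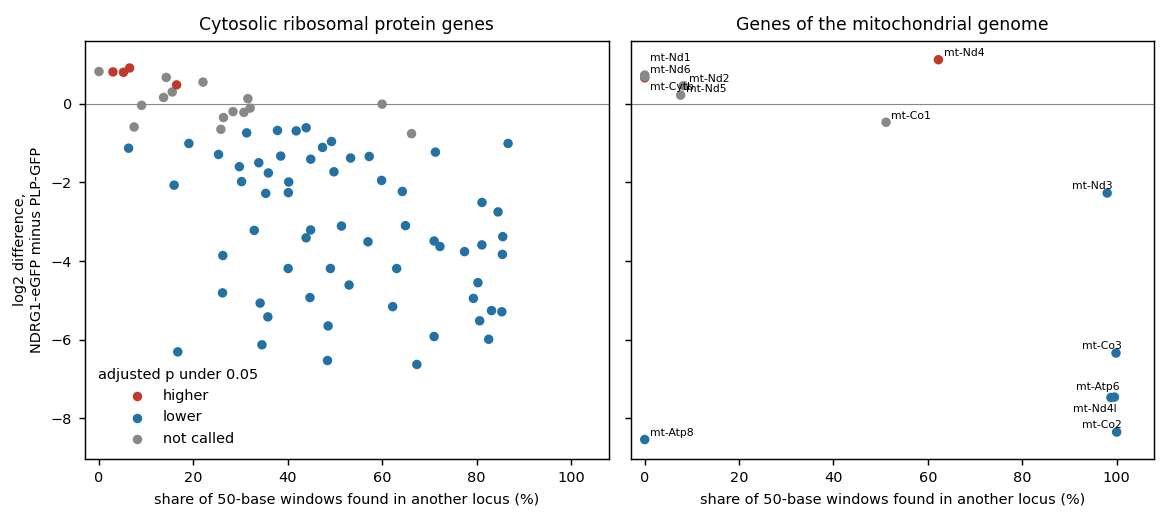
Log2 difference between NDRG1-eGFP and PLP-GFP cells (y axis) against the share of 50-base windows found in another locus (x axis), 1 point per gene, for cytosolic ribosomal protein genes (left) and genes of the mitochondrial genome (right). Red and blue mark genes called higher and lower. Ribosomal genes under 10% lie between -1.13 and 0.91, and the 5 mitochondrial genes over 90% lie at -2.27 or below.

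The genes with the largest differences of both fits are named with a level of at least 10 in the higher group and no overlap between libraries. The largest differences were those of Mgp, a matrix protein that is among the fibroblast-like markers, at 6.52, Slc47a1, an exporter of organic cations, at 6.07, and Fxyd5, a regulator of the sodium pump, at 5.74. Mgp read 11.65, 11.76 and 9.60 against 3.14, 5.60 and 4.73. In all 3 genes NDRG1-eGFP replicate 3 was the lowest of its group, above every PLP-GFP library as the condition requires. Dusp26 (chr8:31089471-31097047), a dual specificity phosphatase, read 14.86, 15.37 and 15.36 against 10.68, 10.72 and 10.57, 4.54 ± 0.15 higher (SE, adjusted p = 5.15e-08). Fggy (chr4:95557507-95926939), a carbohydrate kinase, read 10.14, 10.19 and 10.25 against 6.31, 5.60 and 6.21. Pqlc2 (chr4:139294029-139310708), which exports cationic amino acids from lysosomes, read 11.40, 11.42 and 11.03 against 8.06, 8.05 and 8.09. Dusp26, Fggy and Pqlc2 were tight within each group. In the PDGFRa-GFP libraries Dusp26 lay between 14.73 and 15.01, so the PLP-GFP libraries were the low ones. In 11 of the 12 highest genes, all but Egr1, all 3 PDGFRa-GFP libraries lay above all 3 PLP-GFP libraries. These 12 genes were chosen for a large difference between NDRG1-eGFP and PLP-GFP cells, and the share over all genes was not counted.

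Among the lowest genes, Lars2 (chr9:123366927-123462666), the mitochondrial leucyl-tRNA synthetase, read 13.92, 13.38 and 14.64 against 18.50, 17.59 and 17.70 and fell by 3.95 ± 0.41 (SE, adjusted p = 6.55e-05). In the PDGFRa-GFP libraries it lay between 18.60 and 20.13, so here NDRG1-eGFP cells were the low ones. All these values lay far above the median of the listed mitochondrial tRNA synthetases, which was 9.75 to 10.36 over the 9 libraries. Whether all reads counted for Lars2 stem from this gene was not tested. Gna12 (chr5:140758408-140830431), a G protein alpha subunit, read 12.76, 12.35 and 11.57 against 14.97, 15.34 and 15.44. Spred1, an inhibitor of Ras signalling to MAP kinase, read 10.05, 9.86 and 8.94 against 12.80, 13.49 and 13.34. Rab21, an endosomal GTPase that carries integrins, read 10.07, 9.83 and 9.27 against 12.51, 12.72 and 12.66. These genes were named on the condition of no overlap between libraries. Pxdn, a peroxidase that crosslinks basement membrane collagen, fell by 4.38, and Hebp1, a haem-binding protein, fell by 2.93. Fcho1, which starts clathrin-coated pits, had a wide spread: it read 12.83, 7.59 and 8.07 in the NDRG1-eGFP libraries against 14.63, 14.49 and 14.81, and replicate 1 lay far above the others. Its PDGFRa-GFP libraries lay at 7.04, 8.11 and 7.13. In 8 of the 12 lowest genes, all 3 PDGFRa-GFP libraries lay above all 3 NDRG1-eGFP libraries, among them Lars2 and Gna12. In 8, they lay below all 3 PLP-GFP libraries, and 4 genes met both conditions. The lowest genes too were chosen for their difference, and the shares over all genes were not counted.

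**Figure D3:**
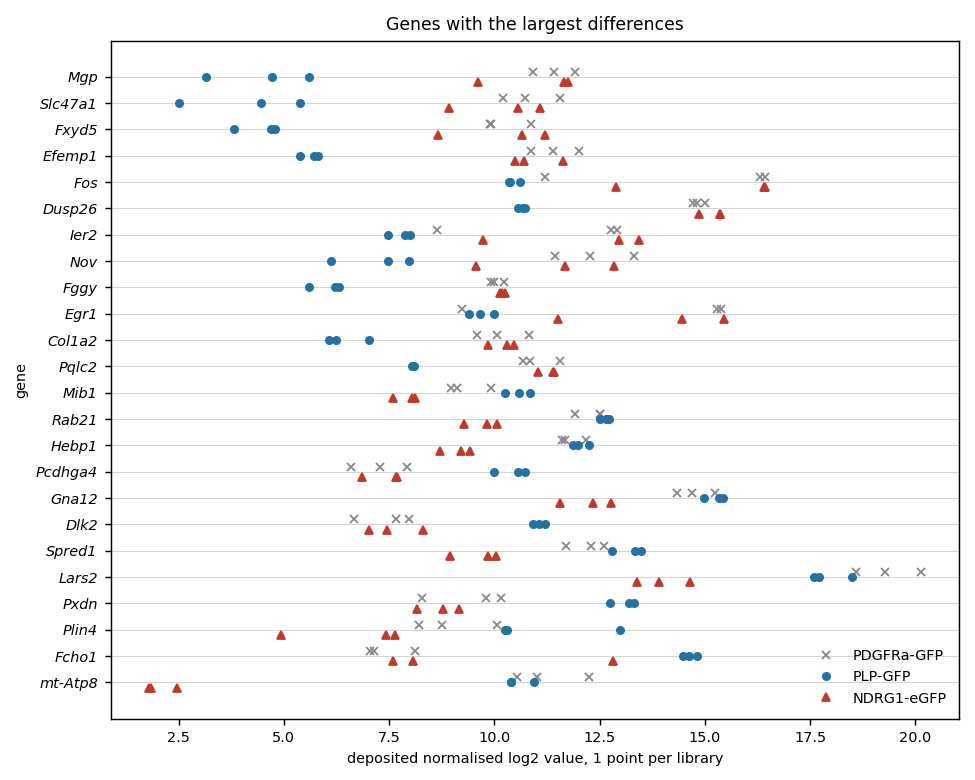
Deposited normalised log2 value (x axis) of the 12 highest and 12 lowest genes (y axis), 1 point per library for PDGFRa-GFP (grey crosses), PLP-GFP (blue circles) and NDRG1-eGFP (red triangles). Dusp26, Fggy and Pqlc2 are tight in both groups, while Fos, Ier2 and Egr1 have 1 low NDRG1-eGFP library, replicate 2.

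Gene lists were then read by process. Among 29 genes of compact myelin and the sheath, 9 were higher, 5 lower and 15 not called, with a median of 0.22, beside 0.08 over all genes. Both fits called 4 higher and 2 lower. Ninj2, an adhesion molecule, read 12.82, 12.59 and 12.42 against 10.96, 10.77 and 10.81 and was 1.76 ± 0.20 higher (SE, adjusted p = 0.000139). Cntn2, a contactin at the juxtaparanode, read 15.71, 15.59 and 15.98 against 16.79, 17.16 and 17.02 and fell by 1.23 ± 0.21 (SE, adjusted p = 0.00122). By the naming rule, list genes such as these had libraries without overlap and were called in the same direction in both fits. Among 17 lineage transcription factors, 3 were higher and 6 lower, and both fits called 1 and 4. Sox8, a relative of Sox10, was 0.87 higher, while Carm1, an arginine methyltransferase, read 9.17, 9.05 and 8.80 against 10.35, 10.53 and 10.70. The lower count of myelin genes was 2 without PLP-GFP replicate 2 or 3 or NDRG1-eGFP replicate 3, 3 without NDRG1-eGFP replicate 1 and 1 without NDRG1-eGFP replicate 2. Of 15 progenitor markers, 1 (Pdgfra) was higher and 1 (Matn4) lower, with the same counts in both fits. The higher count was 0 without PLP-GFP replicate 1 or NDRG1-eGFP replicate 1 or 3 and 3 without NDRG1-eGFP replicate 2, and the lower count 0 without PLP-GFP replicate 2 or 3 or NDRG1-eGFP replicate 1 and 2 without NDRG1-eGFP replicate 3. With the length trend removed, the differences of Ninj2 and Cntn2 were 0.92 and -0.66.

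Of 25 genes of cholesterol synthesis 11 were higher and 1 lower, and both fits called 9 of 21 with little shared sequence higher and 0 lower. Pmvk, phosphomevalonate kinase, read 12.77, 12.42 and 12.32 against 11.33, 10.76 and 10.98, and Mvd, which follows it, read 12.68, 11.80 and 12.11 against 10.68, 10.80 and 10.78. Pmvk was 1.48 ± 0.19 (SE) and Mvd 1.44 ± 0.20 (SE) higher. Srebf1, a regulator of fatty acid synthesis, read 13.56, 13.24 and 13.47 against 14.37, 14.37 and 14.33 and fell by 0.93, and Fads1, a fatty acid desaturase, fell by 0.85. Acss2, which makes acetyl-CoA from acetate, was 0.81 higher. Over 26 fatty acid genes, 5 were higher and 6 lower, against 26.1% and 22.2% over all genes, and both fits called 4 and 2. Of 28 sphingolipid and galactolipid enzymes 8 were higher (5 without PLP-GFP replicate 2) and 5 lower (3 without NDRG1-eGFP replicate 2 or 3). The counts of 8 and 5 were near the 26.1% and 22.2% over all genes, and both fits called 3 and 3. Among them Gal3st1, which makes sulfatide, read 15.27, 14.87 and 14.90 against 14.14, 14.07 and 14.18 and was 0.88 higher. Galc, the lysosomal enzyme that breaks down galactosylceramide, read 11.14, 11.27 and 11.17 against 12.11, 12.38 and 12.20 and fell by 1.04. Of 34 peroxisome and plasmalogen genes 13 were higher and 5 lower (8 higher without NDRG1-eGFP replicate 2), and both fits called 5 and 1. Pex7, the receptor that imports a plasmalogen enzyme, was 0.79 higher. Pex5l, a relative of the peroxisome import receptor that binds HCN channels, fell by 1.17. Small counts moved when 1 library was left out: cholesterol genes numbered 2 lower without NDRG1-eGFP replicate 3, fatty acid genes 3 higher without PLP-GFP replicate 1 or 2 or NDRG1-eGFP replicate 1, and peroxisome genes 3 lower without PLP-GFP replicate 2. Pmvk, Mvd, Gal3st1 and Pex7 differed by 0.77, 0.92, 0.40 and 1.42 with the length trend removed.

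Nuclear genes for mitochondrial proteins were mostly higher, and many were short. Of 36 complex I genes 26 were higher and 1 lower; the count of higher genes was 17 without PLP-GFP replicate 3 and 17 without NDRG1-eGFP replicate 1. Their median length was 944 bases, and removal of the length trend took the median over 29 genes with little shared sequence from 0.84 to 0.13. Both fits called 6 higher and 0 lower, while the fit with the length trend removed called 6 higher and 3 lower among those 29. Ndufa3 read 14.01, 13.81 and 13.81 against 12.29, 11.80 and 12.01, and was 1.84 higher as deposited and 0.81 higher with the length trend removed. For ATP synthase, 11 of 19 genes were higher (7 without PLP-GFP replicate 2) and 5 lower, and both fits called 0 of the 12 with little shared sequence. Mitochondrial ribosomal proteins, which translate the mitochondrial genome, had 53 of 76 higher and 3 lower, and both fits called 13 of 59 higher and 0 lower. Mrpl57 read 11.37, 11.34 and 11.24 against 10.06, 9.91 and 10.11, with a difference of 1.29 that stayed at 1.13 without the length trend. In glycolysis 4 of 25 genes were higher and 8 lower, and both fits called 2 and 2 of the 15 with little shared sequence. Eno2, the enolase also known as a neuron marker, read 9.39, 9.69 and 9.28 against 11.36, 11.15 and 11.10 and fell by 1.75, and Pfkl, a phosphofructokinase, fell by 0.89. The single lower call in complex I was lost without any 1 of the 6 libraries, and glycolysis had 2 higher without PLP-GFP replicate 1 or 2 or NDRG1-eGFP replicate 3 and 1 without PLP-GFP replicate 3 or NDRG1-eGFP replicate 1.

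Synthetases and factors of protein synthesis differed in balance. Of 22 cytosolic tRNA synthetases 11 were higher and 0 lower, and both fits called 3 higher. Sars, the seryl-tRNA synthetase, read 13.77, 13.77 and 13.89 against 13.21, 13.09 and 13.20, a difference of 0.64 that was 0.68 without the length trend. Of 65 initiation and elongation factors 18 were higher, or 11 without PLP-GFP replicate 2 or 3, and 17 lower. The counts of 18 and 17 were near the 26.1% and 22.2% over all genes. Both fits called 6 and 3 of the 43 with little shared sequence. Eif3k was 1.23 higher, or 0.41 with the length trend removed, and Eif4enif1, which carries the cap-binding protein eIF4E into the nucleus, fell by 0.85.

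As deposited, protein turnover showed opposite balances for the proteasome and for deubiquitinating enzymes. Removal of the length trend took their medians over genes with little shared sequence from 0.76 to 0.19 and from -0.41 to -0.07. That fit called 7 proteasome genes higher and 1 lower, and 6 deubiquitinating enzymes higher and 9 lower. Of 46 proteasome genes 30 were higher and 5 lower, and both fits called 7 of 36 higher and 0 lower. Psmd4, a ubiquitin receptor of the proteasome, read 13.81, 13.62 and 13.58 against 12.81, 12.53 and 12.70. Of 44 ubiquitin-specific proteases 3 were higher and 21 lower, and both fits called 3 and 9. The lower count was 11, 12 and 12 without PLP-GFP replicate 2, PLP-GFP replicate 3 or NDRG1-eGFP replicate 2. Usp31 read 12.75, 12.51 and 12.79 against 13.81, 14.39 and 14.29. The median length of the proteases was 4760 bases, against 1490 for the proteasome. Of 30 ubiquitin conjugating enzymes 7 were higher (4 without PLP-GFP replicate 2) and 12 lower, and both fits called 2 and 4 of the 18 with little shared sequence. Ube2s, which extends ubiquitin chains in mitosis, read 4.22, 4.09 and 5.56 against 8.77, 8.69 and 8.54 and fell by 4.04. Of 35 autophagy genes 8 were higher (5 without PLP-GFP replicate 2 or NDRG1-eGFP replicate 1 or 2) and 9 lower, beside 26.1% and 22.2% over all genes. Both fits called 4 and 3. Map1lc3a, a protein of the autophagosome membrane, was 1.30 higher, and Ulk1, the kinase that starts the pathway, read 10.31, 10.35 and 10.19 against 11.44, 11.65 and 11.70 and fell by 1.32. Of 47 lysosomal genes 21 were higher and 3 lower, and both fits called 8 and 3. Npc2, which moves cholesterol out of lysosomes, was 0.90 ± 0.16 (SE) higher and Ctsa, a lysosomal carboxypeptidase, 0.74 ± 0.12 (SE) higher, while Arsb, a sulfatase, fell by 0.59. Psmd4, Usp31 and Map1lc3a differed by 0.47, -0.76 and 0.57 with the length trend removed.

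Rab GTPases direct membrane traffic. Of 54 Rab genes 15 were higher and 12 lower, close to the 26.1% and 22.2% over all genes, and both fits called 8 and 7. Rab7b, a GTPase of late endosomes, read 12.29, 11.90 and 12.16 against 10.21, 9.90 and 10.01 and was 2.08 ± 0.16 higher (SE, adjusted p = 9.46e-06). Rab11fip4, an effector of recycling endosomes, fell by 2.16. Of 45 exchange factors and activating proteins of Rab GTPases 6 were higher, 16 lower and 23 not called, and both fits called 3 and 9. Dennd5a read 14.25, 13.93 and 14.08 against 15.30, 15.50 and 15.53. Of 45 SNARE genes, which drive membrane fusion, 17 were higher (11 without PLP-GFP replicate 2 or 3) and 4 lower, and both fits called 8 and 3. Stx18 was 0.72 higher, and Snap29 and Ykt6, which act in fusion with lysosomes, fell by 1.19 and 0.68. Of 39 clathrin coat and adaptor genes 9 were higher and 13 lower, beside 26.1% and 22.2% over all genes, and both fits called 5 and 5. The light chain Cltb read 13.89, 13.84 and 13.87 against 12.89, 12.78 and 12.78, and the heavy chain Cltc read 13.53, 13.97 and 14.01 against 14.65, 15.14 and 14.97. Of the adaptor subunits, Ap1s1 was 1.26 higher and Ap1g1 fell by 1.07. With the length trend removed, these 4 differed by 0.66, -0.56, 0.61 and -0.51. Keeping the direction was a condition for naming them.

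**Figure D4:**
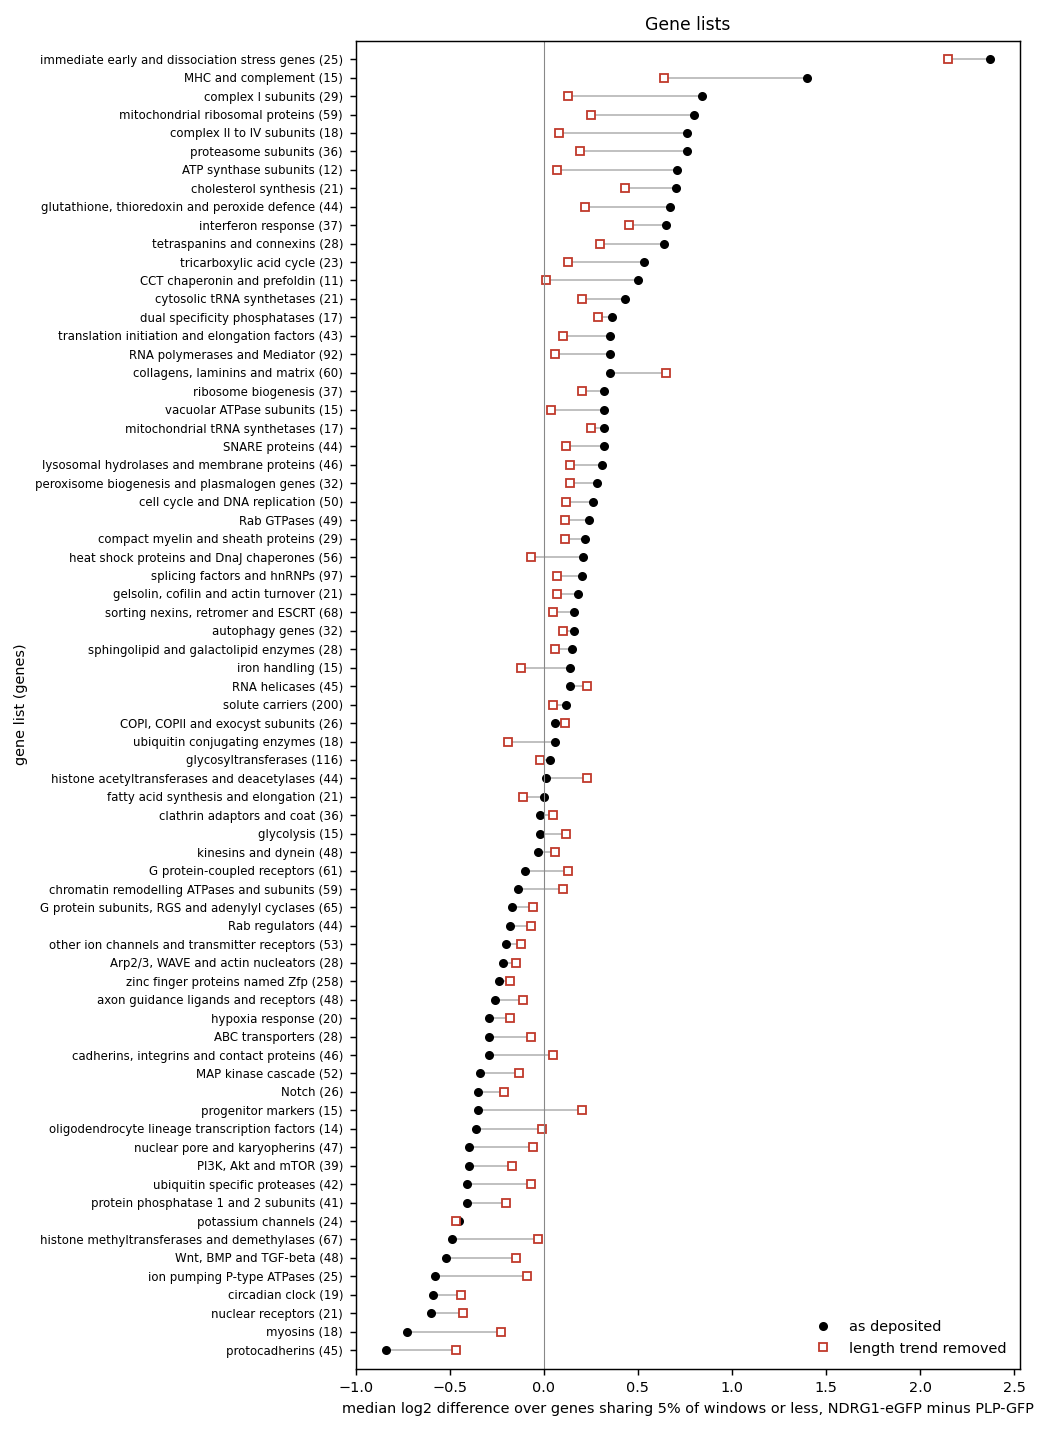
Median log2 difference between NDRG1-eGFP and PLP-GFP cells (x axis) over the genes with little shared sequence of each list (y axis, number of genes in parentheses), as deposited (black) and with each library's length trend removed (open squares). Complex I moves from 0.84 to 0.13, whereas immediate early genes stay at 2.37 and 2.15.

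Genes of the actin cytoskeleton and of motor proteins differed in both directions. Among 30 genes for actin nucleation 7 were higher and 10 lower, and both fits called 1 and 5. Actr2, a core subunit of Arp2/3, read 10.83, 10.96 and 11.02 against 12.42, 12.50 and 12.52, and Wasf3, which activates that complex, fell by 1.81. Brk1, a small subunit of the WAVE complex, was 1.01 higher as deposited and 0.27 higher with the length trend removed, and its call was lost when shared genes were also left out (adjusted p = 0.0512). Among genes for actin turnover Gsn, the severing protein gelsolin, read 18.27, 17.55 and 17.86 against 16.83, 16.75 and 16.77 and was 1.11 ± 0.17 higher (SE, adjusted p = 0.000554). Limk1, a kinase that blocks cofilin, fell by 0.86, and Ssh3, a phosphatase of the family that reactivates cofilin, fell by 3.15. Of 20 myosins 5 were lower and 0 higher, and both fits called 2 lower. The kinesin Kif13a fell by 1.72 and Kif13b fell by 2.30, and Dynll1, a dynein light chain, was 1.06 higher, or 0.62 with the length trend removed.

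Transporters and channels set which solutes cross the membrane. Of 210 solute carriers 52 were higher and 42 lower, close to the 26.1% and 22.2% over all genes, and both fits called 33 and 24 of 200. Slc31a2, a copper transporter, read 12.35, 12.37 and 12.14 against 11.24, 11.14 and 11.18. Slc5a3, which imports myo-inositol, read 12.07, 12.04 and 12.28 against 13.71, 14.14 and 13.85, and Slc12a2, the sodium-potassium-chloride cotransporter NKCC1, read 15.01, 15.01 and 14.51 against 16.28, 16.86 and 16.79. Libraries without overlap were a condition for naming these genes. Of 29 ABC transporters 10 were lower and 5 higher, and both fits called 8 and 4. Abca1, which exports cholesterol, read 10.15, 10.51 and 10.62 against 12.29, 12.17 and 12.10, and Abca2, a lipid transporter of oligodendrocyte lysosomes, fell by 1.76 as well. Abcg2, a drug and urate exporter, was 1.56 higher. Among 24 potassium channel genes 3 were higher and 7 lower, and both fits called 2 and 5. Kcnq3, a subunit of the M-current channel, fell by 2.57, and Kcnu1, a large-conductance channel gene known from sperm, was 1.53 higher. Of 26 ion pumping ATPase genes 9 were lower and 1 higher (2 without NDRG1-eGFP replicate 2), and both fits called 5 and 1. With the length trend removed, 5 of the 25 with little shared sequence were lower and 5 higher. Atp1b1, a beta subunit of the sodium pump, read 10.08, 10.44 and 9.22 against 6.70, 6.18 and 7.19. Without PLP-GFP replicate 2, 3 ABC transporters were higher. With the length trend removed, Slc31a2, Slc5a3, Abca1 and Abca2 differed by 0.60, -1.02, -1.03 and -1.13.

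Contact and guidance molecules included large differences on both sides. Of 45 protocadherins 19 were lower and 1 higher. The lower count was 8, 10 and 9 without PLP-GFP replicate 2, PLP-GFP replicate 3 or NDRG1-eGFP replicate 1, and both fits called 5 lower and 1 higher. With the length trend removed, 5 were lower and 3 higher. Some also share windows within their own locus, 65.93% in Pcdhga4 and 44.06% in Pcdhga11, which do not count as shared here. Pcdh10 read 10.29, 10.09 and 10.28 against 11.19, 11.50 and 11.27. Of 48 cadherins, integrins and related proteins 17 were lower and 5 higher, and both fits called 10 and 2. Cadm4, which binds axonal partners at the internode, read 12.34, 11.45 and 11.46 against 14.14, 13.89 and 13.81 and fell by 2.20, and Itgb8, an integrin that activates TGF-beta, fell by 1.62. Of 48 axon guidance genes 12 were lower (7 without PLP-GFP replicate 2) and 4 higher (2 without PLP-GFP replicate 1 or 3 or NDRG1-eGFP replicate 1 or 2), and both fits called 6 and 3. With the length trend removed, 6 were lower and 6 higher. Sema6d and Sema7a, membrane-bound semaphorins, fell by 1.84 and 1.89. Ephb6, an Eph receptor without kinase activity, read 10.04, 10.54 and 10.22 against 7.17, 7.58 and 7.47 and was 2.86 ± 0.21 higher (SE, adjusted p = 5.92e-06). Of 29 tetraspanins and connexins 14 were higher (9 without NDRG1-eGFP replicate 1) and 1 lower, and both fits called 9 and 0. Tspan13 read 9.85, 10.66 and 9.63 against 6.74, 7.10 and 6.85, and Tspan17 was 1.69 higher. Of 119 glycosyltransferases and related enzymes 29 were higher and 27 lower, close to the 26.1% and 22.2% over all genes. Both fits called 9 and 20 of 116, beside 11.3% and 10.5% of all genes with little shared sequence. Hs6st1, which sulfates heparan chains, read 10.14, 9.62 and 9.12 against 11.82, 12.06 and 12.13. Without 1 library, contact proteins had 2 higher (PLP-GFP replicate 2), 1 (PLP-GFP replicate 3 or NDRG1-eGFP replicate 1) or 3 (NDRG1-eGFP replicate 2). The single lower tetraspanin or connexin lost its call without any PLP-GFP library or NDRG1-eGFP replicate 1. Pcdh10, Itgb8 and Tspan17 differed by -0.47, -0.97 and 1.11 with the length trend removed.

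In the nucleus, lower calls outnumbered higher ones for DNA-binding and transport proteins. Of 313 genes named Zfp, mostly zinc finger transcription factors, 92 were lower and 23 higher, and both fits called 35 and 7 of 258. The higher count was 15, 11 and 13 without PLP-GFP replicate 1, 2 or 3. Zfp91 read 10.02, 9.81 and 9.72 against 11.58, 11.65 and 11.64. Of 54 nucleoporins and karyopherins 27 were lower and 6 higher, and both fits called 8 of 47 lower and 0 higher. Removal of the length trend took the median over those 47 from -0.40 to -0.06, with 8 called lower and 2 higher. The median length of the 54 was 4764 bases. Ranbp2, the largest protein of the pore's cytoplasmic filaments, read 10.73, 10.91 and 11.01 against 12.28, 12.71 and 12.48. Subunits of the Polycomb complex PRC2 diverged, as Suz12 fell by 1.36, with the methyltransferase Ezh2 0.79 higher. Ncoa1, a coactivator of nuclear receptors, fell by 2.23, and Hdac11, a histone deacetylase, read 13.20, 12.81 and 13.28 against 14.12, 14.57 and 14.61. Orc2, a subunit of the origin recognition complex, read 11.32, 11.32 and 11.38 against 9.42, 9.48 and 9.34 and was 1.93 ± 0.13 higher (SE, adjusted p = 3.14e-06). Gtf2a1, a general transcription factor, fell by 1.84, and Med8, a Mediator subunit, 1.49 higher. Without 1 library, 3 nuclear pore genes (PLP-GFP replicate 1 or NDRG1-eGFP replicate 1) or 2 (PLP-GFP replicate 2 or 3 or NDRG1-eGFP replicate 2) were higher. Ranbp2 and Med8 differed by -0.90 and 0.96 with the length trend removed.

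In the pathways downstream of growth factors, more genes were lower than higher. Of 55 genes of the MAP kinase cascade 22 were lower (14 without PLP-GFP replicate 3) and 8 higher (5 without PLP-GFP replicate 2 or NDRG1-eGFP replicate 1), and both fits called 12 of 52 lower and 1 higher. Sos2, an exchange factor that activates Ras, read 10.73, 10.54 and 10.16 against 12.20, 12.60 and 12.58. The inhibitor Spred1, described above, fell with it, and Map2k2, the kinase MEK2, was 0.84 higher. Of 41 genes of PI3K, Akt and mTOR signalling 16 were lower, 3 higher and 22 not called, and both fits called 7 and 1. With the length trend removed, 9 of the 39 with little shared sequence were lower and 6 higher. Akt1, a kinase at the centre of the pathway, fell by 1.83, and Pik3ca, a catalytic subunit of PI3K, fell by 1.45. Deptor, an inhibitor of mTOR, read 10.85, 10.67 and 10.89 against 8.77, 8.52 and 8.21 and was 2.31 ± 0.21 higher (SE, adjusted p = 2.53e-05). With the length trend removed, Map2k2 and Pik3ca differed by 0.52 and -0.78.

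The Wnt, BMP and TGF-beta pathways had 18 of 48 genes lower and 5 higher, and both fits called 16 and 5. Smad4, the shared mediator of BMP and TGF-beta signals, read 10.08, 9.61 and 9.26 against 11.61, 11.87 and 11.94. Lrp6, a Wnt co-receptor, read 10.72, 10.83 and 10.66 against 12.22, 12.57 and 12.50. They fell by 2.15 and 1.69. Nkd1, an inhibitor of Wnt signalling, read 13.76, 13.77 and 13.82 against 12.88, 12.85 and 12.87 and was 0.92 higher. Of 47 phosphatase subunits 20 were lower and 6 higher, and both fits called 9 and 3. Ppp2cb, a catalytic subunit of PP2A, read 10.21, 9.86 and 9.57 against 11.87, 12.18 and 12.18, whereas Ppp1r14a, an inhibitor of myosin phosphatase that is abundant in oligodendrocytes, read 15.29, 14.94 and 15.06 against 13.65, 13.25 and 13.46. Of 21 circadian clock genes 10 were lower and 3 higher, and both fits called 6 of 19 lower and 0 higher, among them Clock, which fell by 1.49, and Nr1d1, which fell by 0.66. Thra, a thyroid hormone receptor, fell by 1.10. Gpr176, an orphan receptor, was 2.40 higher, and Adgrb1, an adhesion receptor, fell by 1.70. Without NDRG1-eGFP replicate 2, 3 genes of these pathways were higher, and without PLP-GFP replicate 2 or 3 or NDRG1-eGFP replicate 1, 1 clock gene was higher. Lrp6, Ppp1r14a and Clock differed by -1.0, 0.84 and -0.78 with the length trend removed.

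Many immediate early genes rose, with a wide spread among NDRG1-eGFP libraries. Of 27 listed, 17 were higher and 0 lower, and both fits called 8 higher. Fos, which encodes a transcription factor induced within minutes of stimulation, read 16.41, 12.90 and 16.43 against 10.60, 10.37 and 10.34, and replicate 2 was the low one. The summed level of the list was 1150 to 5280 ppm of all linear values in the NDRG1-eGFP libraries and 780 to 918 in the PLP-GFP libraries. In the PDGFRa-GFP libraries the sum was 4840, 4960 and 959 ppm, and Fos read 16.43, 16.30 and 11.20. High levels with a wide spread were thus not particular to NDRG1-eGFP cells. The count of higher genes was 10 without PLP-GFP replicate 2 or 3, 7 without NDRG1-eGFP replicate 1 and 8 without NDRG1-eGFP replicate 3. Egr1 lost its call in 5 of the 6 fits that left out 1 library (adjusted p from 0.0731 to 0.129). Cyr61, a secreted protein of the same response, read 9.64, 8.23 and 10.02 against 5.63, 4.90 and 5.21. Of 54 genes for glutathione and peroxide defence 21 were higher and 5 lower, and both fits called 7 and 0. Mgst3, a microsomal glutathione transferase, read 12.70, 11.81 and 12.57 against 10.47, 10.31 and 10.40. Mgst3 differed by 1.23 with the length trend removed.

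Genes of fibroblast-like and immune cells were also higher. Of 60 collagen, laminin and other matrix genes 17 were higher and 9 lower, the latter 3 and 4 without PLP-GFP replicate 3 or NDRG1-eGFP replicate 1. All 17 higher genes were called in both fits, and 4 lower ones. Col1a2, a chain of collagen I, read 10.31, 10.46 and 9.86 against 6.24, 7.03 and 6.08, and Efemp1, a fibulin of the matrix, read 10.70, 11.64 and 10.49 against 5.38, 5.81 and 5.71. Of 15 markers of fibroblast-like and meningeal cells 10 were higher and 0 lower, all 10 in both fits. Their sum was 5820 to 11500 ppm in NDRG1-eGFP and 6110 to 18700 in PLP-GFP cells. Their sum without Ptgds, which made up 98.8% of it and is also made by oligodendrocytes, was 77.0 to 239 ppm in the NDRG1-eGFP libraries and 45.7 to 62.5 in the PLP-GFP libraries. Col1a1, Col1a2, Dcn and Mgp, 4 of the 5 defining markers, were measured and none was at 0. Of 22 microglial markers 14 were higher and 1 lower, and both fits called 6 and 1. Their sums were 183 to 273 and 150 to 198 ppm. Without Sall1, the lower gene, which made up 35.3% of the sum, they were 141 to 219 in NDRG1-eGFP and 69.3 to 98.1 in PLP-GFP cells, with no overlap. P2ry12 and Tmem119, receptors and membrane proteins that define microglia, were 1.88 and 1.60 higher. Of 23 genes for MHC and complement 13 were higher and 0 lower, and both fits called 5 of the 15 with little shared sequence higher. Serping1, the C1 inhibitor, was 3.60 higher. Of 44 interferon response genes 15 were higher and 2 lower, and both fits called 7 and 1. Ifnar2, a subunit of the type I interferon receptor, read 11.94, 11.76 and 11.74 against 10.56, 10.69 and 10.74. The part of other cells in these differences was not tested. Interferon response genes had 1 lower without PLP-GFP replicate 2 and 4 without NDRG1-eGFP replicate 3, and 1 gene for MHC and complement was lower without NDRG1-eGFP replicate 1.

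Markers of the other cell types were read the same way. Of 20 astrocyte markers 3 were higher and 2 lower, and both fits called 2 and 1, with sums of 2320 to 2790 ppm in the NDRG1-eGFP libraries and 1760 to 2260 in the PLP-GFP libraries. S100b, which oligodendrocytes also express, read 14.83, 13.98 and 14.97 against 12.28, 12.36 and 12.60, and Slc4a4, a bicarbonate transporter of astrocytes, read 4.40, 5.14 and 4.45 against 7.78, 7.71 and 9.58. Of 13 neuron markers 0 were higher and 1, Eno2, was lower, also in both fits, and the sums overlapped at 167 to 220 and 195 to 274 ppm. Without Tubb3, which made up 40.2% of the sum, they were 97.8 to 116 in NDRG1-eGFP and 138 to 152 in PLP-GFP cells, with no overlap. Of 5 endothelial and pericyte genes 1, Itm2a, was higher, also in both fits, and 0 lower. Ependymal genes had 0 of 7 higher and 1, Foxj1, lower, also in both fits, a call that was lost without PLP-GFP replicate 1 or 3 or NDRG1-eGFP replicate 1 or 2. Of 6 erythroid genes, which include the haemoglobin pair above, 2 were higher and 1 lower, and both fits called 0 of the 2 with little shared sequence. Hba-a1, a shared gene, also differed with the length trend removed, by -12.53 (adjusted p = 1.41e-06). Alas2, a haem synthesis enzyme, and Hbb-bs, a beta globin, were not called, with differences of -2.44 (adjusted p = 0.0785) and -1.73 (adjusted p = 0.176). The erythroid sum was 33.8 to 88.4 ppm in NDRG1-eGFP and 133 to 227 in PLP-GFP cells, with no overlap, and without Hba-a1, 33.8 to 88.4 and 72.1 to 104, with overlap. Astrocyte markers had 1 higher without NDRG1-eGFP replicate 1, and 1 lower without PLP-GFP replicate 3 or NDRG1-eGFP replicate 2 or 3; 1 neuron marker was higher without PLP-GFP replicate 1, 1 endothelial or pericyte marker lower without NDRG1-eGFP replicate 1 and 1 ependymal marker higher without NDRG1-eGFP replicate 2. Without PLP-GFP replicate 1 or 3 or NDRG1-eGFP replicate 1 or 3, 1 erythroid gene was higher.

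**Figure D5:**
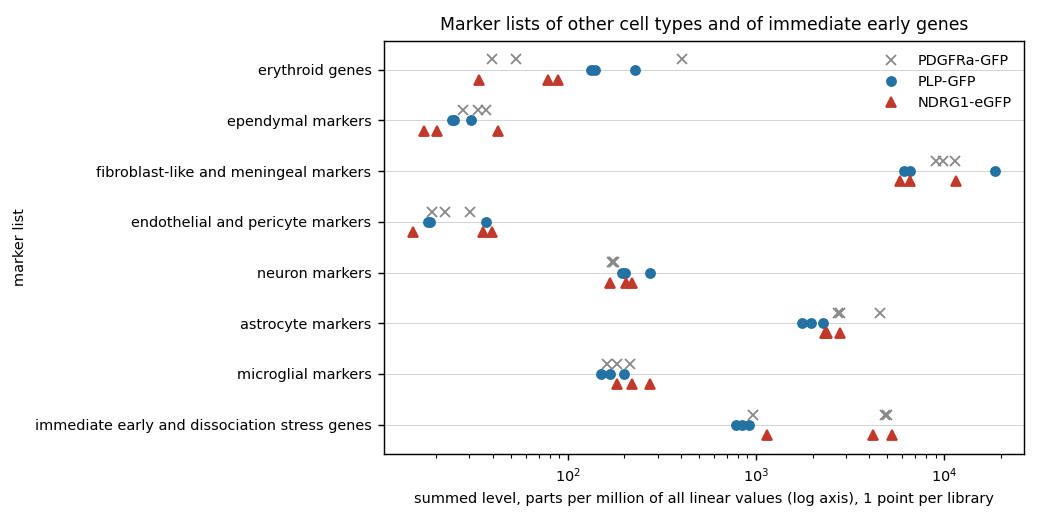
Summed level of marker lists (y axis) in ppm of all linear values (x axis, log scale), 1 point per library and group. Immediate early genes are high in NDRG1-eGFP replicates 1 and 3 and lower in replicate 2, at 1150, and the PLP-GFP libraries lie together between 780 and 918. Their PDGFRa-GFP libraries lie at 4840, 4960 and 959.

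Families were also formed from the stem of the gene symbol, without regard to function, and ranked by the median over members with little shared sequence. The 8 highest, among families of at least 10 such members, were Timm, Ndufa, Nudt, Mrpl, Commd, Mrps, Cox and Fkbp, with medians from 0.69 to 0.91. Timm proteins, which import proteins into mitochondria, had 9 of 13 higher and 2 lower, and both fits called 5 of 11 higher. Nudt hydrolases, which cleave nucleoside diphosphate derivatives, had 12 of 21 higher and 2 lower, and both fits called 6 of 17 higher. Commd proteins, subunits of an endosomal recycling complex, had 9 of 10 higher, and both fits called 3. With the length trend removed, the medians of these 8 families lay between 0.06 and 0.45, and Timm and Nudt kept the highest, at 0.45 and 0.41. The 8 lowest were Galnt, Myo, Arhgef, Pcdhb, Pik, Pde, Arhgap and Pcdhga, with medians from -1.21 to -0.56. With the length trend removed, they ran from -0.86 to 0.02: Myo went from -0.56 to 0.02 and Arhgef from -0.63 to -0.27, while Arhgap was at -0.61 and Pcdhga at -0.86. Windows shared within 1 locus, not counted as shared, made up 65.93% of Pcdhga4 and 44.06% of Pcdhga11. The Pcdhga family is therefore not free of reads without a unique origin. Arhgap had 9 of 21 lower and 0 higher, and both fits called 7 lower. Galnt enzymes, which start mucin-type glycosylation, had 5 of 11 lower and 1 higher, and both fits called 4 and 1. Arhgef had 9 of 20 lower, but 5, 4, 4 and 5 without PLP-GFP replicate 1, 2 or 3 or NDRG1-eGFP replicate 2, and both fits called 3. Pcdhb had 2 of 17 lower and 0 in both fits. The 2 Pcdhb calls were lost without PLP-GFP replicate 2 or 3 or NDRG1-eGFP replicate 1 or 3. The higher Galnt call was lost without PLP-GFP replicate 1 or 3 or NDRG1-eGFP replicate 1 or 2, and Galnt had 2 higher without NDRG1-eGFP replicate 3.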

How the data were processed

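RNA sequencing of sorted mouse brain cells gave 9 libraries, 3 per reporter group. The authors deposited 1 normalised log2 value per gene and library, per the file headers and the values, which ran from 0.29 to 21.87 with a median of 10.57 in each library. BWA, DESeq2 1.2.5 and the build mm10 appear in the submitters' processing notes, with no role given. Depth is unknown, since counts were not analysed here. Near-equal distributions in all libraries mean that a rise of some genes lowers others.

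limma-trend (limma 3.58.1, R 4.3.3) was fitted to these values for all 9 libraries with a term per group, two-sided, with Benjamini-Hochberg adjustment over all genes. Lengths and shared 50-base windows came from GENCODE M21 on GRCm38, in which 11274 of 11315 symbols matched (10929 directly and 345 by an older symbol). In 17 rows the symbol was a date, and these were not named. The length trend was the lowess curve of each library's deviation from the mean of the 9 on log2 length. Copies were grouped with igraph 2.1.4. Fits were tested on simulated data.

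Named genes were Ndrg1, the 12 highest and 12 lowest of both fits with a mean of at least 10 in the higher group, up to 2 per list and direction with the smallest adjusted p and no overlap, the 8 lowest and 4 highest over 50% shared, and 8 stem families per side. Genes named outside this rule (Rps3, Rps27, Tuba1a, Tuba1c, Acaa1a, Acaa1b, Mbp, Sox10, Ddx3y, Ptgds, Alas2, Hbb-bs, Tubb3, Col1a1, Dcn, mt-Cytb and mt-Nd4) were chosen after their values were seen. Lists and members were chosen with earlier results of these data known. Some items are not reported here. Alternatives are given with the limits.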

Additional observations from a re-analysis of the deposited data

How the results depend on the processing

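The counts over all genes, 2953 higher and 2507 lower, moved by over 1.5 times under few settings. Higher genes numbered 1617 with the length trend removed, 1692 with length and GC trends removed, 1490 without shared genes and length trend, 1223 with a replicate block and the length trend removed, 936 at an absolute difference of at least 1, and 1816 at an adjusted p under 0.01. Lower genes numbered 1219, 1578 and 1350 without shared genes and length trend, with the block and length trend removed, and at an absolute difference of at least 1. Leaving out 1 library gave 2114 to 2633 higher and 1847 to 2313 lower. A replicate block gave 2473 higher and 2207 lower. Deviations of libraries with the same number correlated at -0.06, 0.09 and -0.09, and those with different numbers at -0.13 to 0.15. With 3 libraries a group, this cannot settle whether the numbers pair the libraries. Ndrg1, not called, turned to -0.01 with the length trend removed, with or without shared genes or the block, and to -0.04 with length and GC removed. Differences below the lowest value of a library cannot be read, and depth is unknown.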
